A study of Mus musculus with 45 samples.

Results

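The nuclear genes for subunits of the mitochondrial respiratory chain were followed across mouse ileum lacking death-receptor and necroptosis proteins. Genes were taken by name: symbols that begin with Ndufa, Ndufb, Ndufc, Ndufs or Ndufv and a number for complex I, Sdha to Sdhd for complex II, Uqcr for complex III, Cox4 to Cox8 for complex IV, and Atp5 for the ATP synthase, complex V. These were 84 of the 19494 genes on the array, with 1 probe each: 35 of complex I, 4 of complex II, 8 of complex III, 20 of complex IV and 17 of complex V. Ndufa4 and its paralog Ndufa4l2 were counted with complex IV. The naming rule uses no measured value; the family was taken up with earlier results of these data known. Ndufb1, Ndufb4c and the subunits encoded in mitochondrial DNA were not analysed here.

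The study used 45 mice, 1 array each, in 9 groups of 5, all about 11 weeks old, kept free of specific pathogens on chow, with sex not stated. Total RNA came from whole pieces of ileum, so the values hold muscle and connective tissue as well as epithelium, and fewer cells of a type cannot be told apart from less RNA per cell. The controls carried floxed alleles, Fadd fl/fl or Casp8 fl/fl. FADD IEC-KO and CASP8 IEC-KO mice lacked FADD, the adaptor of death receptors, or caspase-8, the protease it recruits, in intestinal epithelial cells. The other groups joined these deletions to loss of a protein of necroptosis, a lytic form of cell death: MLKL, its executioner (FADD IEC-KO Mlkl -/- and CASP8 IEC-KO Mlkl -/-), ZBP1, a nucleic acid sensor (FADD IEC-KO Zbp1 -/-), or RIPK3, its kinase (FADD IEC-KO RIPK3 IEC-KO). The ninth group, FADD IEC-KO CASP8 IEC-KO Mlkl -/-, is called the triple mutant below; its titles name all of these deletions and its genotype field leaves out FADD. Mlkl and Zbp1 were deleted in the whole animal, Fadd, Casp8 and Ripk3 in intestinal epithelial cells. The promoter that drives the recombinase is not named in the labels.

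The respiratory chain passes electrons from NADH through complex I, or from succinate through complex II, to ubiquinone, then through complex III and cytochrome c to complex IV, which reduces oxygen. Complexes I, III and IV pump protons across the inner mitochondrial membrane, and complex V uses the gradient to make ATP. Most subunits are encoded in the nucleus, and several complex IV subunits come in isoforms that differ between tissues. In the ileum, absorptive enterocytes are rich in mitochondria.

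The stretch before the start of a gene holds sites through which nuclear respiratory factors act on this family. The 250 bases before the annotated start are printed for 3 subunits that were higher than in Fadd fl/fl in each of the 3 combinations of FADD loss with loss of MLKL, ZBP1 or RIPK3 (Cox5a, Cox7a2, Ndufs5), and for Atp5k, a small membrane subunit of the ATP synthase that rose with loss of ZBP1. Atp5k was chosen because it held motif matches. Sequences are from RefSeq, assembly GRCm38.p6, written 5′ to 3′ along the gene's strand, with matches to the nuclear respiratory factor motif (NRF1) in capitals.
Cox5a, chr9:57520982-57521231, plus strand: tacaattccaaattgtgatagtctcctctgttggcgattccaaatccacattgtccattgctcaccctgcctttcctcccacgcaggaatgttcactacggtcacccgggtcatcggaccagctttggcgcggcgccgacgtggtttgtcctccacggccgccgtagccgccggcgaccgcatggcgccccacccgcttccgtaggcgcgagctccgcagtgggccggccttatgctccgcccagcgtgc
Cox7a2, chr9:79759854-79760103, minus strand: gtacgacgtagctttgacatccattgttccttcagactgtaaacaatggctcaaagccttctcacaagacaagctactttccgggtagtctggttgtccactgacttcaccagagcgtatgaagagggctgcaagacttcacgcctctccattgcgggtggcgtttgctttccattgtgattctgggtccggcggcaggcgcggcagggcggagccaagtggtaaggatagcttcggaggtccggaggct
Ndufs5, chr4:123718187-123718436, minus strand: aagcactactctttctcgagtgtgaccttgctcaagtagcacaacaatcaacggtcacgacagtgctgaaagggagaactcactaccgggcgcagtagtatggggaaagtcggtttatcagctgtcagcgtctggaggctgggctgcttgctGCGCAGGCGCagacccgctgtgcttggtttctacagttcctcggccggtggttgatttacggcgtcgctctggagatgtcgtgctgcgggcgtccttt
Atp5k, chr5:108434400-108434649, minus strand: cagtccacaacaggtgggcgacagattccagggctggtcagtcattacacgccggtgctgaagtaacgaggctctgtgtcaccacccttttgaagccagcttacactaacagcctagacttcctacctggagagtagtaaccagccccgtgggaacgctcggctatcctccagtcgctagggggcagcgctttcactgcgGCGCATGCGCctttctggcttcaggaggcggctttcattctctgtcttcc

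Ndufs5 held a match to NRF1 that began 98 bases before the start. Atp5k, chosen for its matches to NRF1 and to the ETS motif described below, held an NRF1 match that began 50 bases before the start. Its ETS match began 12 bases after the start, outside the printed stretch. The stretches of Cox5a and Cox7a2 held no match to NRF1 or to the other motifs searched. Windows of 250 bases before to 50 after the start were found for 69 of the 84 genes; Uqcrq, Cox4i1, Sdhc and Ndufs1 were among those without one. Both strands were searched for GCGC and TGCGC with any base between them (NRF1), CCGGAAG (the ETS family, which includes GABP), AAGATGGCG (YY1) and TCAAGGTCA (ESRRA), and the ETS and YY1 letters can overlap, since the first end as the second begin. A gene was counted if any of its windows held the letters, and the 69 genes had 74 windows. The NRF1 letters were found for 17 of the 69 genes (24.6%), against 7.55% of 15614 other measured genes. The ETS letters were also found for 17 genes (24.6%, against 13.2%). The YY1 letters were in 7 (10.1%, against 2.2%) and the ESRRA letters in 2 (2.9%, against 0.339%). By complex, NRF1 letters were found for 7 of 32 genes of complex I, 2 of 3 of complex II, 1 of 5 of complex III, 1 of 14 of complex IV and 6 of 15 of complex V. Among subunits with a window, 24 were higher in FADD IEC-KO Zbp1 -/- than in Fadd fl/fl (a call that 4.78% of all genes met). Of these, 5 held NRF1 letters (20.8%), and of the other 45 subunits 12 did (26.7%). The corresponding shares for ETS were 29.2% and 22.2%, for YY1 0% and 15.6%, and for ESRRA 0% and 4.44%. These are matches of letters and no measure of binding.

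Array medians lay between 6.45 and 6.54 on the log2 scale, and the median correlation of arrays within a group was 0.981 to 0.992. Fadd was 7.53 in Fadd fl/fl on average and 6.05 to 6.17 in the 3 FADD IEC-KO combinations and the triple mutant. In FADD IEC-KO itself, replicate 1 had a Fadd value of 7.32, against 5.96 to 6.45 in the other 4 mice, so this mouse stood near the controls. In CASP8 IEC-KO, replicate 1 had a Casp8 value of 10.89 and replicate 5 one of 10.57, against 9.63 to 10.20 in the others and a mean of 11.35 in Casp8 fl/fl. Mlkl was 8.43 ± 0.22 (SD, n = 5) in the group labelled CASP8 IEC-KO Mlkl -/- and 8.62 ± 0.21 in Casp8 fl/fl, so this probe did not check that label. Zbp1 was 5.66 to 6.46 in FADD IEC-KO Zbp1 -/-, 6.23 to 7.72 in Fadd fl/fl and 5.83 to 7.94 in FADD IEC-KO. These ranges overlapped, so the Zbp1 probe did not check that label mouse by mouse either. Subunit results that rest on replicate 1 of FADD IEC-KO or of CASP8 IEC-KO are given with these mice, with the counts, medians and main changes also given without them. All 5 FADD IEC-KO RIPK3 IEC-KO arrays had high Y-linked expression, against 2 or 3 of 5 in each other group. Group means of pan-epithelial markers ran from 10.97 to 11.07. Over the mice they were 10.94 to 11.00 in Fadd fl/fl, 11.02 to 11.12 in FADD IEC-KO and 11.03 to 11.08 in the triple mutant. FADD IEC-KO Zbp1 -/- had 10.93 to 11.11, FADD IEC-KO Mlkl -/- 10.94 to 11.06 and FADD IEC-KO RIPK3 IEC-KO 10.96 to 11.10. The part of these differences in the subunit results was not tested. Markers of exocrine pancreas and of skeletal and heart muscle lay below the array medians on average.

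Subunit levels differed between the 9 groups for 50 of the 84 genes (59.5%) by limma's moderated F test at an adjusted p under 0.05, against 25.4% of all genes. The share was 25 of 35 in complex I (71.4%), 3 of 4 in complex II, 5 of 8 in complex III (62.5%), 9 of 20 in complex IV (45.0%) and 8 of 17 in complex V (47.1%). The group with the lowest mean was a floxed control for 59 of the 84 genes, Casp8 fl/fl for 38 of them and Fadd fl/fl for 21. The group with the highest mean was FADD IEC-KO Zbp1 -/- for 29, FADD IEC-KO RIPK3 IEC-KO for 22 and FADD IEC-KO Mlkl -/- for 21. The differences were small. The mean log2 level over all 84 subunits was 9.20 in Fadd fl/fl (9.11 to 9.27 over the 5 mice), 9.24 in FADD IEC-KO (9.21 to 9.28), 9.32 in FADD IEC-KO Mlkl -/- (9.25 to 9.36), 9.36 in FADD IEC-KO Zbp1 -/- (9.28 to 9.41) and 9.34 among FADD IEC-KO RIPK3 IEC-KO (9.26 to 9.37). It was 9.16 in Casp8 fl/fl (9.13 to 9.18), 9.27 in CASP8 IEC-KO (9.17 to 9.34), 9.21 in CASP8 IEC-KO Mlkl -/- (9.19 to 9.22) and 9.25 in the triple mutant (9.20 to 9.30). FADD IEC-KO Zbp1 -/- mice lay above all Fadd fl/fl mice on this mean, while FADD IEC-KO overlapped them.

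**Figure D1:**
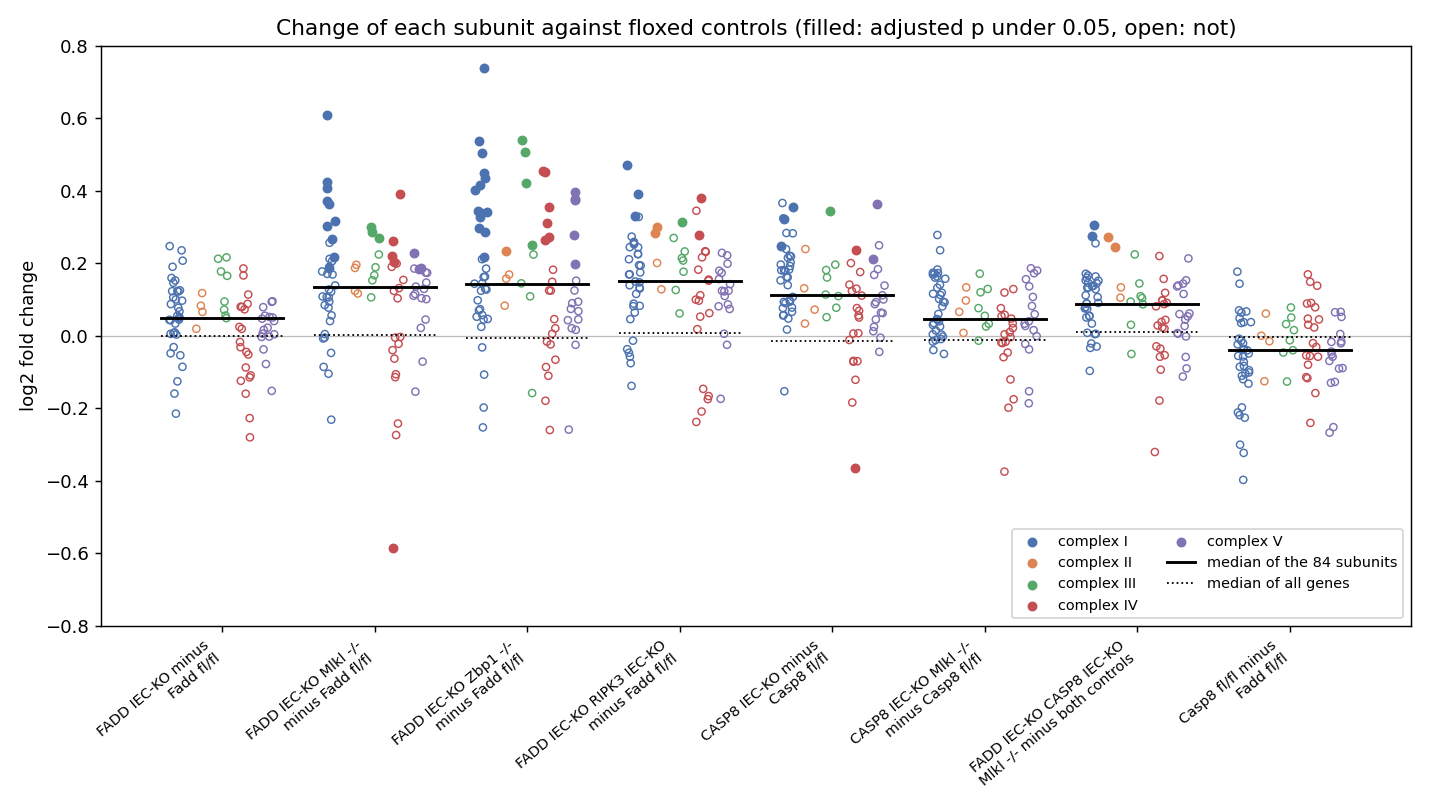
Log2 change of each of the 84 subunits, grouped by complex, for the 7 mutant groups against floxed controls and between the 2 control groups (n = 5 mice a group; 10 controls for the triple mutant). Filled points passed limma's adjusted p of 0.05, the solid line is the median of the subunits and the dotted line the median of all genes; filled points above 0 are most frequent for FADD IEC-KO Zbp1 -/- (30) and FADD IEC-KO Mlkl -/- (20).

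The question of how FADD loss combined with loss of a necroptosis protein differs from the Fadd fl/fl control gave the most calls in this gene family. With ZBP1 loss added (FADD IEC-KO Zbp1 -/-), 30 of the 84 subunits rose (35.7%) and 0 fell, where 4.78% of all genes were called higher and 7.08% lower. With MLKL loss added (FADD IEC-KO Mlkl -/-), 20 rose (23.8%) and 1 fell, where 4.12% of all genes were called higher and 6.35% lower. With RIPK3 loss added (FADD IEC-KO RIPK3 IEC-KO), 8 rose (9.52%) and 0 fell, where 0.564% of all genes were called higher and 0.662% lower. The median log2 difference of the 84 subunits was 0.14, 0.13 and 0.15 in that order, and 70, 66 and 71 subunits lay above 0. An unadjusted limma p under 0.05 was met by 42, 41 and 45 subunits, of which 38, 38 and 45 were higher. Among all genes 4911, 4564 and 2714 met it. The median of all genes lay between -0.02 and 0.02 in each of the 18 comparisons made. These comparisons share the 5 Fadd fl/fl mice, and the results by complex that follow are against them. Up to the results of FADD loss on its own, "with ZBP1 loss", "with MLKL loss" and "with RIPK3 loss" name the whole combination against Fadd fl/fl. FADD loss is thus part of each of these differences. The mice of both groups did not overlap for 17 higher and 0 lower subunits with ZBP1 loss (2.78% and 3.64% of all genes), 13 and 2 with MLKL loss (4.23% and 5.63%), and 22 and 0 with RIPK3 loss (1.69% and 1.58%). Of the 20 subunits that rose in FADD IEC-KO Mlkl -/-, 14 also rose in FADD IEC-KO Zbp1 -/-, which is 14 of its 30. Ndufs5, Uqcrq, Cox7a2 and Cox5a rose in each of the 3 combinations.

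Complex I, the largest, held the most calls: 14 of its 35 subunits rose with ZBP1 loss (40%), 10 with MLKL loss (28.6%) and 3 with RIPK3 loss (8.57%). By share complex III stood higher, with 50%, 37.5% and 12.5% of its 8 subunits in that order. Complex II reached 50% of its 4 subunits with RIPK3 loss. Ndufs5, an accessory subunit of complex I, measured 7.84, 7.43, 7.96, 7.59 and 7.47 in the Fadd fl/fl mice. It was 8.28, 8.45, 8.32, 8.55 and 8.38 in FADD IEC-KO Zbp1 -/-, and 8.23, 8.11, 8.42, 8.18 and 8.40 in FADD IEC-KO Mlkl -/-. The FADD IEC-KO RIPK3 IEC-KO mice had 8.01, 8.49, 8.22, 8.02 and 7.90. Every ZBP1-deficient and MLKL-deficient mouse lay above every control, and the lowest RIPK3-deficient mouse lay below the highest control. Against Fadd fl/fl, Ndufs5 thus rose by 0.74 ± 0.12 (SE) on the log2 scale in FADD IEC-KO Zbp1 -/- (1.67-fold, limma adjusted p = 8.44e-05). It rose by 0.61 ± 0.12 (limma adjusted p = 0.000994) in FADD IEC-KO Mlkl -/- and by 0.47 ± 0.12 (adjusted p = 0.0437) in FADD IEC-KO RIPK3 IEC-KO.

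Ndufa5, an accessory subunit of the matrix arm of complex I, was 8.51, 8.43, 8.56, 8.38 and 8.41 in Fadd fl/fl, 8.86, 8.99, 8.93, 9.07 and 9.12 in FADD IEC-KO Zbp1 -/-, and 8.84, 8.78, 8.95, 8.86 and 8.89 in FADD IEC-KO Mlkl -/-. All mice of both combinations lay above the controls, with changes of 0.54 ± 0.09 (limma adjusted p = 0.000128) and 0.41 ± 0.09 (adjusted p = 0.00329). Ndufb10, an accessory subunit of the membrane arm, rose by 0.50 ± 0.09 with ZBP1 loss (limma adjusted p = 0.000143) and by 0.33 with RIPK3 loss (adjusted p = 0.0458). Ndufb8, also of the membrane arm, rose by 0.45 ± 0.10 with ZBP1 loss (limma adjusted p = 0.00347) and by 0.36 with MLKL loss (adjusted p = 0.0195). Ndufc2, another membrane arm subunit, was 9.85, 10.10, 10.21, 10.08 and 10.01 in Fadd fl/fl and 10.44, 10.58, 10.47, 10.41 and 10.47 in FADD IEC-KO Mlkl -/-, a rise of 0.42 ± 0.08 with no overlap (limma adjusted p = 0.000246). Ndufb6 (0.37) and Ndufv2 (0.32), the latter an iron-sulfur subunit of the NADH-oxidising module, also rose in FADD IEC-KO Mlkl -/-, and Ndufb2 rose by 0.39 ± 0.09 in FADD IEC-KO RIPK3 IEC-KO (limma adjusted p = 0.0235).

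**Figure D2:**
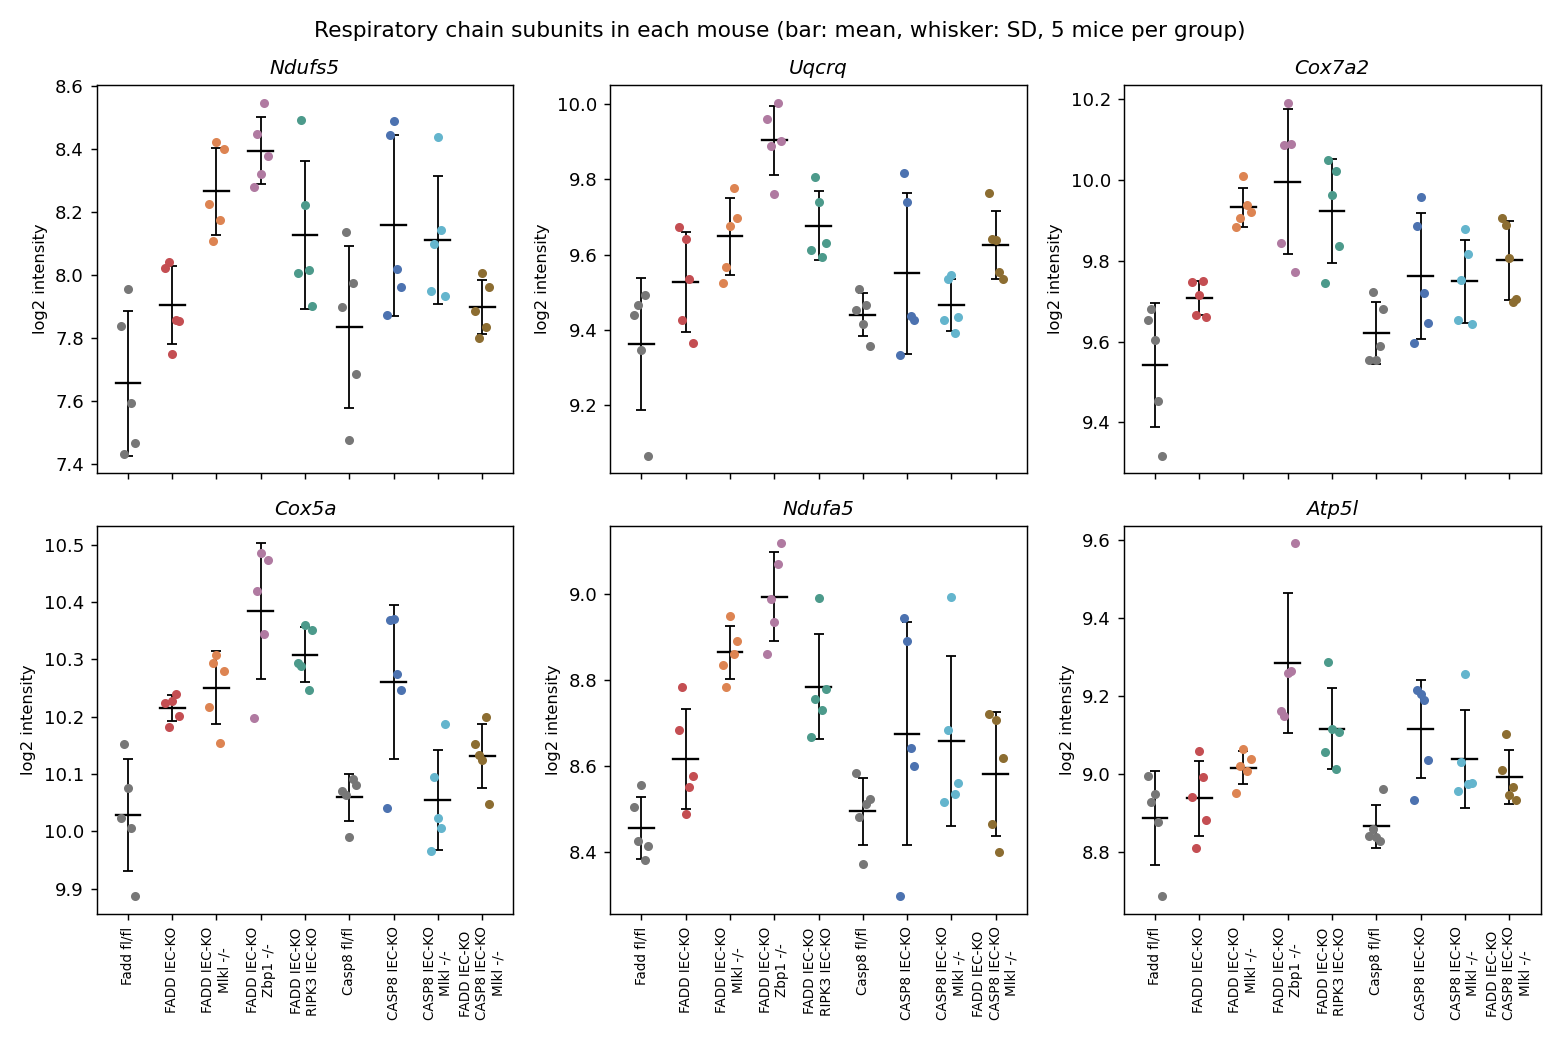
Log2 level of Ndufs5, Uqcrq, Cox7a2, Cox5a, Ndufa5 and Atp5l in each of the 45 mice, by group; points are mice, the bar is the group mean and the whisker its SD (n = 5). In the FADD IEC-KO Zbp1 -/- column every point of Ndufs5 (8.28 to 8.55) lies above every Fadd fl/fl point (7.43 to 7.96).

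Complex II, which also carries out a step of the tricarboxylic acid cycle, was called in FADD IEC-KO RIPK3 IEC-KO. Sdhb, its iron-sulfur subunit, was 10.04, 10.09, 10.05, 9.89 and 9.90 in Fadd fl/fl and 10.13, 10.33, 10.30, 10.27 and 10.36 among FADD IEC-KO RIPK3 IEC-KO. Sdhc, a membrane anchor, was 8.46, 8.63, 8.54, 8.57 and 8.32 in Fadd fl/fl and 8.70, 8.82, 8.94, 8.85 and 8.71 among FADD IEC-KO RIPK3 IEC-KO. For both genes every RIPK3-deficient mouse lay above every control: Sdhb rose by 0.28 ± 0.07 (limma adjusted p = 0.0214) and Sdhc by 0.30 ± 0.07 (adjusted p = 0.0139). In FADD IEC-KO Zbp1 -/-, Sdhc rose by 0.23, and no complex II gene was called in FADD IEC-KO Mlkl -/-.

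Complex III showed a median log2 difference of 0.24 in FADD IEC-KO Zbp1 -/-, where 4 of its 8 subunits rose. Its mean level was 9.51 in Fadd fl/fl (9.38 to 9.58 over the mice) and 9.76 in FADD IEC-KO Zbp1 -/- (9.69 to 9.81). Uqcrq, a small subunit of the complex, was 9.44, 9.47, 9.35, 9.49 and 9.07 in Fadd fl/fl, and 9.96, 9.89, 9.76, 10.00 and 9.90 in FADD IEC-KO Zbp1 -/-. The FADD IEC-KO Mlkl -/- mice had 9.52, 9.57, 9.68, 9.78 and 9.70, and the FADD IEC-KO RIPK3 IEC-KO mice had 9.61, 9.81, 9.74, 9.59 and 9.63. All 3 combinations lay above the controls without overlap, and replicate 5 was the low control. Uqcrq rose by 0.54 ± 0.08 with ZBP1 loss (limma adjusted p = 2.28e-05), by 0.29 with MLKL loss (adjusted p = 0.021) and by 0.31 with RIPK3 loss (adjusted p = 0.0457). Uqcr11, another small subunit, was 7.58, 7.60, 7.69, 7.83 and 7.68 in Fadd fl/fl and 8.27, 8.27, 8.15, 8.10 and 8.14 in FADD IEC-KO Zbp1 -/-, a rise of 0.51 ± 0.09 with no overlap (limma adjusted p = 0.00012). Uqcrfs1, the Rieske iron-sulfur protein that passes electrons on to cytochrome c1, rose by 0.25 in FADD IEC-KO Zbp1 -/-.

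In complex IV, 6 of 20 subunits rose in FADD IEC-KO Zbp1 -/-, 4 rose and 1 fell in FADD IEC-KO Mlkl -/-, and 2 rose in FADD IEC-KO RIPK3 IEC-KO. Cox7a2, the isoform of subunit VIIa found in most tissues, was 9.65, 9.68, 9.60, 9.45 and 9.32 in Fadd fl/fl, and 9.84, 10.09, 10.19, 10.09 and 9.77 in FADD IEC-KO Zbp1 -/-. The FADD IEC-KO Mlkl -/- mice had 9.88, 9.91, 10.01, 9.94 and 9.92, and the RIPK3-deficient mice 9.74, 10.05, 9.96, 10.02 and 9.84. No mouse of these combinations overlapped the controls. Cox7a2 rose by 0.45 ± 0.08 (limma adjusted p = 0.000177), 0.39 ± 0.08 (adjusted p = 0.0012) and 0.38 ± 0.08 (adjusted p = 0.00821) in that order.

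Cox5a, which sits on the matrix side of complex IV, was 10.02, 10.15, 10.08, 10.01 and 9.89 in Fadd fl/fl. It was 10.20, 10.42, 10.49, 10.34 and 10.47 in FADD IEC-KO Zbp1 -/-, and 10.29, 10.29, 10.36, 10.25 and 10.35 among FADD IEC-KO RIPK3 IEC-KO. Cox5a rose without overlap by 0.35 (limma adjusted p = 0.000177) and 0.28 ± 0.06 (adjusted p = 0.0159), and by 0.22 with MLKL loss (adjusted p = 0.018). Cox4i1, the common isoform of subunit IV, was 10.08, 10.13, 9.94, 9.99 and 9.98 in Fadd fl/fl, and 10.29, 10.46, 10.46, 10.56 and 10.62 in FADD IEC-KO Zbp1 -/-. Cox4i1 rose by 0.45 ± 0.08 with ZBP1 loss (limma adjusted p = 0.000112), with no overlap. In FADD IEC-KO Mlkl -/- it was 9.92, 10.20, 10.25, 10.16 and 10.25, among which replicate 1 lay below all controls, and it was not called.

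In complex V, 5 of 17 subunits rose with ZBP1 loss, 3 with MLKL loss and 0 with RIPK3 loss. Atp5l, a membrane subunit that helps ATP synthase dimers form, was 9.0, 8.93, 8.95, 8.88 and 8.69 in Fadd fl/fl and 9.16, 9.15, 9.26, 9.26 and 9.59 in FADD IEC-KO Zbp1 -/-. It rose by 0.40 (limma adjusted p = 0.000439), all ZBP1-deficient mice lying above the controls and replicate 5 standing highest. Atp5k, another subunit of the membrane part, was 7.29, 7.31, 7.32, 7.78 and 7.19 in Fadd fl/fl and 7.52, 7.73, 7.75, 7.78 and 8.0 in FADD IEC-KO Zbp1 -/-. Atp5k rose by 0.38 (limma adjusted p = 0.00772), and control replicate 4 lay within the range of the ZBP1-deficient mice.

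These counts depended on single mice to different degrees. Without replicate 5 of Fadd fl/fl, which had the lowest mean over all subunits (9.11), 23 subunits passed with ZBP1 loss, 10 with MLKL loss and 0 with RIPK3 loss; Ndufs5 then differed by 0.69 (limma adjusted p = 0.000681), 0.56 (adjusted p = 0.00668) and 0.42 (adjusted p = 0.138). The FADD IEC-KO Mlkl -/- count of 21 was 13 without Fadd fl/fl replicate 1 and 13, 12 and 12 without FADD IEC-KO Mlkl -/- replicates 2, 3 and 5. The FADD IEC-KO RIPK3 IEC-KO count of 8 was 5, 5 and 2 without Fadd fl/fl replicates 2, 3 and 4, and 3, 4, 4 and 5 without FADD IEC-KO RIPK3 IEC-KO replicates 2, 3, 4 and 5. With only the groups compared in the fit, 9, 7 and 0 subunits passed with ZBP1, MLKL and RIPK3 loss, and with quantile normalization 41, 35 and 9. With the number series of the titles as a covariate, Ndufs5 and Uqcrq missed the threshold in FADD IEC-KO RIPK3 IEC-KO (limma adjusted p = 0.0575 and 0.0582).

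Sample titles carry numbers under 100 or of 200 and over, whose meaning is not stated. Within each of these series the median difference of the 84 subunits was 0.16 and 0.12 for FADD IEC-KO Zbp1 -/-, and 0.14 and 0.17 for FADD IEC-KO RIPK3 IEC-KO. For FADD IEC-KO Mlkl -/-, whose 5 mice were all under 100, it was 0.14 against the 2 Fadd fl/fl mice under 100. Ndufs5 differed by 0.72 and 0.79 with ZBP1 loss, by 0.61 and 0.29 with RIPK3 loss and by 0.63 with MLKL loss. The medians thus lay above 0 in each series that could be examined.

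FADD loss on its own gave no call among the subunits. In FADD IEC-KO against Fadd fl/fl, 0 of 84 passed in limma, where 1.81% of all genes were called higher and 1.92% lower; 10 subunits had an unadjusted p under 0.05, of which 8 were higher and 2 lower. The count was 1 with each array centred on its median, 1 with dim genes left out, 1 without Fadd fl/fl replicate 3, and 0 without FADD IEC-KO replicate 1. The median difference was 0.05 and 61 of 84 subunits lay above 0. Ndufs5 was 8.02, 8.04, 7.75, 7.86 and 7.85 in FADD IEC-KO, a difference of 0.25 ± 0.12 from Fadd fl/fl (limma adjusted p = 0.279), and the groups overlapped. Cox6b2, an isoform of subunit VIb known from testis, differed by -0.28 ± 0.11 (limma adjusted p = 0.13). The 5 FADD IEC-KO mice lay above all controls for 4 subunits and below them for 0, where 2.25% and 1.59% of all genes did. These were Ndufc2 (0.24; limma adjusted p = 0.0686), Cox5a (0.19; adjusted p = 0.084), Uqcrfs1 (0.18) and Cox7c (0.11), which are named after their values were seen. Without FADD IEC-KO replicate 1 the median was 0.05, 58 subunits lay above 0, and Ndufc2 and Cox5a differed by 0.22 (limma adjusted p = 0.134) and 0.18 (adjusted p = 0.124).

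CASP8 loss moved 8 subunits. In CASP8 IEC-KO against Casp8 fl/fl, 7 rose and 1 fell, where 2.89% of all genes were called higher and 1.28% lower. The median of the 84 was 0.11, and 74 lay above 0. The groups did not overlap for 10 higher and 0 lower subunits, where 2.69% and 1.57% of all genes were so separated. Ndufc2 was 10.15, 9.99, 9.81, 9.98 and 9.96 in Casp8 fl/fl and 10.12, 10.55, 10.38, 10.37 and 10.24 in CASP8 IEC-KO, and it rose by 0.35 ± 0.08 (limma adjusted p = 0.00517). Atp5g1, which encodes the rotating c-ring subunit of ATP synthase, was 9.98, 10.12, 10.22, 10.13 and 10.30 in Casp8 fl/fl and 10.28, 10.67, 10.54, 10.54 and 10.53 in CASP8 IEC-KO, and it rose by 0.36 ± 0.09 (limma adjusted p = 0.0107). For both genes replicate 1 of CASP8 IEC-KO was the low mouse and lay within the control range. Atp5g2 and Atp5g3, which also encode the c-ring subunit, were called in none of the comparisons. The genes Uqcr11 (0.34), Ndufb10 (0.32), Ndufb4b (0.25), Cox6b1 (0.24) and Atp5c1 (0.21), the last the central stalk of ATP synthase, rose without overlap. Cox6b2 fell by 0.36 ± 0.11 (limma adjusted p = 0.0435), from 6.53, 6.84, 6.67, 6.46 and 6.72 to 6.50, 6.12, 6.38, 6.25 and 6.15.

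Without CASP8 IEC-KO replicate 1 the CASP8 loss count was 16 (15 higher, 1 lower) and the median 0.14. The share of all genes called without this mouse is not given here, so 16 is not set against one. Ndufc2 then rose by 0.41 (limma adjusted p = 0.000914), Atp5g1 by 0.42 (adjusted p = 0.00211), and Cox6b2 fell by 0.42 (adjusted p = 0.0175). The count was 1, 2 and 5 without replicates 2, 3 and 4 of CASP8 IEC-KO, and, when controls were left out, 4 and 4 without Casp8 fl/fl replicates 1 and 2 and 3 without the third. With the fit restricted to both groups compared it was 0. The difference between FADD loss and CASP8 loss was tested itself: 0 of 84 subunits and 0 of all genes passed in limma, with an unadjusted p under 0.05 for 6 subunits, all with the smaller value after FADD loss. The subunit at the low end was Ndufs7 (-0.53 ± 0.16; limma adjusted p = 0.41), a core iron-sulfur subunit of complex I, and that at the high end Ndufb8 (0.16; adjusted p = 0.925). Between the floxed controls no subunit was called in limma (0 of 84, where 0.00513% of all genes were called higher in Casp8 fl/fl and 0% lower). An unadjusted limma p under 0.05 was met by 9 subunits, all lower in Casp8 fl/fl, and by 1634 of all genes, of which 905 were lower. The median was -0.04, and 55 of 84 subunits lay below 0. Ndufs7 had the lowest value, -0.40 ± 0.11 in Casp8 fl/fl minus Fadd fl/fl (limma adjusted p = 0.2). Both sets of controls enter the difference between FADD loss and CASP8 loss, and their part in it was not tested. Without Fadd fl/fl replicate 1, 1 subunit passed in the test of the difference and 1 between the controls.

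**Figure D3:**
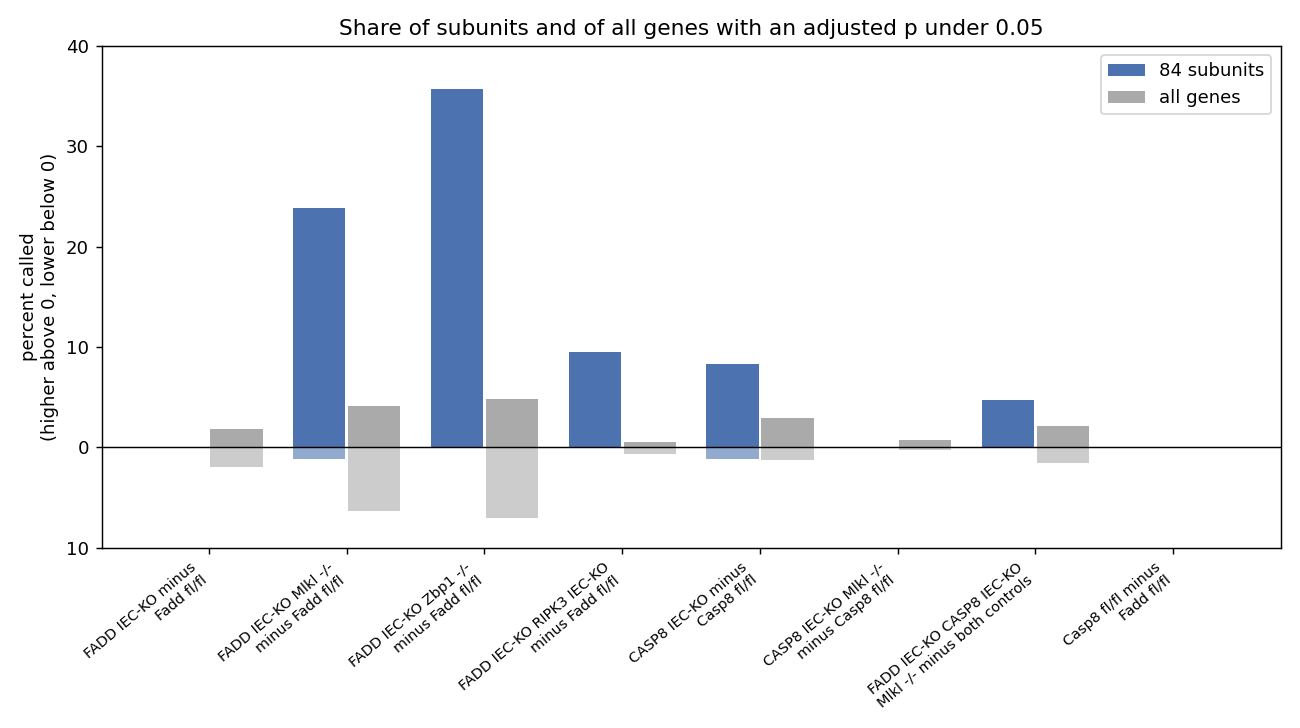
Share of the 84 subunits and of all 19494 genes called higher (above 0) or lower (below 0) at limma's adjusted p of 0.05, by comparison. The subunits stand at 35.7% higher for FADD IEC-KO Zbp1 -/- against Fadd fl/fl, where 4.78% of all genes were called higher.

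The next comparisons took FADD IEC-KO mice as the reference and asked what loss of ZBP1, MLKL or RIPK3 added; they share those 5 mice. With ZBP1 loss 12 subunits rose and 0 fell, where 0.857% of all genes were called higher and 2.47% lower. Cox4i1 was 10.01, 10.00, 10.01, 10.15 and 10.07 in FADD IEC-KO, all below the lowest FADD IEC-KO Zbp1 -/- mouse (10.29), and rose by 0.43 (limma adjusted p = 0.00221). Ndufs5 rose by 0.49 (limma adjusted p = 0.0205), Ndufb7 by 0.39 (adjusted p = 0.00541), Ndufa5 by 0.38 (adjusted p = 0.0187) and Uqcrq by 0.37 (adjusted p = 0.00954), all without overlap. Ndufb7 and Ndufa1, which rose by 0.37, are accessory subunits of complex I. When replicate 1 of FADD IEC-KO was left out, 13 subunits rose, Cox4i1 by 0.42 (limma adjusted p = 0.00467) and Ndufs5 by 0.52 (adjusted p = 0.0233). The count was 4, 17 and 7 without replicates 3, 4 and 5 of FADD IEC-KO, 6 and 7 without FADD IEC-KO Zbp1 -/- replicates 4 and 5, and 0 with the fit restricted to both groups.

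With MLKL loss in mice without FADD, 1 subunit rose and 0 fell, where 0.857% of all genes were called higher and 0.749% lower. This was Ndufa4, first assigned to complex I and later to complex IV. Ndufa4 was 10.59, 10.48, 10.53, 10.90 and 10.65 in FADD IEC-KO and 10.86, 10.97, 11.01, 10.90 and 11.04 in FADD IEC-KO Mlkl -/-, a rise of 0.33 ± 0.07 (limma adjusted p = 0.00376) with 1 FADD IEC-KO mouse, replicate 4, among the MLKL-deficient ones. With RIPK3 loss 3 subunits rose and 0 fell, where 0.831% of all genes were called higher and 0.723% lower: Cox7a1 (0.50 ± 0.11; limma adjusted p = 0.0172), Ndufa4 (0.28 ± 0.07; adjusted p = 0.0281) and Sdhb (0.27 ± 0.07; adjusted p = 0.031). The RIPK3 count was 0 without FADD IEC-KO replicate 3 or 5 or FADD IEC-KO RIPK3 IEC-KO replicate 4, 1 without FADD IEC-KO replicate 2 or FADD IEC-KO RIPK3 IEC-KO replicate 5, and 6 without FADD IEC-KO replicate 4. Without FADD IEC-KO replicate 1, Ndufa4 rose by 0.32 with MLKL loss (limma adjusted p = 0.0101), and Cox7a1 (0.47), Ndufa4 (0.27) and Sdhb (0.29) rose with RIPK3 loss. With the fit restricted to both groups, no subunit passed for MLKL loss or for RIPK3 loss.

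FADD IEC-KO Zbp1 -/- was also set directly against the other combinations. Against FADD IEC-KO Mlkl -/-, 4 subunits were higher and 2 lower, where 1.76% of all genes were called higher and 2.36% lower. Cox7a1 (0.46 ± 0.11; limma adjusted p = 0.0151), Cox4i1 (0.32 ± 0.08; adjusted p = 0.0115), Ndufa6 (0.29; adjusted p = 0.0232) and Atp5l (0.27; adjusted p = 0.0341) were higher without overlap. Uqcrc2, a core protein of complex III, was 8.85, 8.59, 8.74, 8.33 and 8.56 in FADD IEC-KO Zbp1 -/- and 8.91, 8.98, 9.01, 8.89 and 8.85 in FADD IEC-KO Mlkl -/-, a difference of -0.31 ± 0.07 (limma adjusted p = 0.0103) with the ranges overlapping at one end. Ndufa4 was lower by 0.23. In the same comparison 11 of 12 smooth muscle markers were higher (median 0.68; mean level 9.86 to 10.27 against 9.16 to 9.52), 4 of 17 enterocyte markers were higher (10.39 to 11.04 against 10.17 to 10.46) and 4 of 10 Paneth markers lower (8.16 to 8.63 against 8.75 to 10.02), and their part in the result was not tested. Against FADD IEC-KO RIPK3 IEC-KO, Ndufb7 alone was higher in limma (0.30 ± 0.08; adjusted p = 0.0366), where 0.569% of all genes were called higher and 1.45% lower. The medians of the 84 subunits in these comparisons were 0.02 and 0. The first count was 2 and 3 without FADD IEC-KO Mlkl -/- replicates 1 and 2, and 10 and 3 without FADD IEC-KO Zbp1 -/- replicates 3 and 4. The second was 0 without FADD IEC-KO RIPK3 IEC-KO replicate 1, 2, 4 or 5 or FADD IEC-KO Zbp1 -/- replicate 2 or 5.

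CASP8 IEC-KO Mlkl -/- had no called subunit against Casp8 fl/fl in limma (0 of 84, where 0.775% of all genes were called higher and 0.313% lower; 9 with an unadjusted p under 0.05). The extreme values were those of Cox8b, an isoform of subunit VIII (-0.37 ± 0.15; limma adjusted p = 0.282), and Ndufs5 (0.28; adjusted p = 0.354). Against CASP8 IEC-KO, 0 of 84 passed in limma, where 1.59% of all genes were called higher and 1.19% lower, 12 had an unadjusted p under 0.05, all lower, and the median was -0.07 (-0.10 without CASP8 IEC-KO replicate 1). The extreme values were those of Ndufv3 (-0.26 ± 0.12; limma adjusted p = 0.328), an accessory subunit of the NADH module, and Cox6b2 (0.19; adjusted p = 0.492). The count against CASP8 IEC-KO was 2 without CASP8 IEC-KO replicate 1, 1 without CASP8 IEC-KO Mlkl -/- replicate 5 and 2 with dim genes left out; that against Casp8 fl/fl was 1 without Casp8 fl/fl replicate 5. The effect of MLKL loss in mice without FADD minus that in mice without caspase-8 had a median of 0.16 over the subunits, with 77 of 84 above 0. None passed in limma (0 of 84, where 0.0564% of all genes did; 22 with an unadjusted p under 0.05), with Ndufa4 at 0.42 ± 0.10 (adjusted p = 0.0921) and Cox6b2 at -0.49 ± 0.15 (adjusted p = 0.358); the count was 1 without CASP8 IEC-KO replicate 1 or FADD IEC-KO replicate 4.

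The triple mutant, compared with the 10 floxed controls, had 4 higher subunits and 0 lower ones, where 2.15% of all genes were called higher and 1.54% lower. Sdha, the succinate-oxidising flavoprotein of complex II, was 8.77, 8.67, 8.75, 8.75 and 8.60 in the triple mutants, 8.30, 8.55, 8.46, 8.40 and 8.47 in Fadd fl/fl and 8.45, 8.5, 8.47, 8.38 and 8.38 in Casp8 fl/fl. It rose by 0.27 ± 0.06 (limma adjusted p = 0.00518), all triple mutants lying above all controls. Ndufa1 (0.30 ± 0.08; limma adjusted p = 0.0267), Ndufb10 (0.28; adjusted p = 0.0318) and Sdhc (0.24 ± 0.06; adjusted p = 0.0121) also rose. The count was 1 without triple mutant replicate 1, and 1 with the fit restricted to these groups.

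By label the triple mutant differs from FADD IEC-KO Mlkl -/- by the loss of caspase-8. The Mlkl probe differed as well, at 6.94 to 7.32 in the triple mutant and 7.85 to 8.39 in FADD IEC-KO Mlkl -/-. Against that group the triple mutant had 7 lower subunits and 1 higher, where 5.51% of all genes were called higher and 2.35% lower. Ndufc2 was 10.17, 10.11, 10.16, 10.10 and 10.20 in the triple mutant and 10.41 to 10.58 in FADD IEC-KO Mlkl -/-, and it fell by 0.33 (limma adjusted p = 0.0053). Atp5g1 was 10.17, 9.99, 10.15, 10.17 and 10.34 against 10.45 to 10.70, and it fell by 0.41 ± 0.09 (limma adjusted p = 0.00194). Ndufc1 fell by 0.41 ± 0.08 (limma adjusted p = 0.00191), Ndufb6 by 0.35, Uqcrc2 by 0.27 and Ndufa4 by 0.24, all without overlap, and Atp5h fell by 0.20. Cox6b2 was 6.43, 6.57, 6.62, 6.52 and 6.39 in the triple mutant and 6.03, 5.73, 6.02, 5.82 and 5.84 in FADD IEC-KO Mlkl -/-, a rise of 0.62 ± 0.11 (limma adjusted p = 0.000329) with no overlap. All 5 triple mutants had title numbers of 200 and over and all 5 FADD IEC-KO Mlkl -/- mice numbers under 100, so series and group cannot be told apart within these 2 groups. The count of 8 was 5 without FADD IEC-KO Mlkl -/- replicate 2, 3 or 5, 5 with the title series as a covariate, 21 with quantile normalization, 14 with arrays centred on their medians and 13 with dim genes left out.

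By label the triple mutant differs from CASP8 IEC-KO Mlkl -/- by loss of FADD. The Mlkl probe differed as well, at 6.94 to 7.32 in the triple mutant and 8.18 to 8.66 in CASP8 IEC-KO Mlkl -/-. Between these groups Atp5d alone was called in limma, where 2.04% of all genes were called higher and 1.07% lower. Atp5d, a subunit of the central stalk of ATP synthase, was 10.27, 10.24, 9.90, 10.26 and 10.31 in CASP8 IEC-KO Mlkl -/- and 10.59, 10.44, 10.55, 10.58 and 10.65 in the triple mutant. It rose by 0.37 ± 0.10 (limma adjusted p = 0.0251) with no overlap. The count was 0 without triple mutant replicate 1, 4 or 5 or CASP8 IEC-KO Mlkl -/- replicate 3, 2 without triple mutant replicate 2 or CASP8 IEC-KO Mlkl -/- replicate 1, and 0 with the title series as a covariate.

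Several complex IV subunits exist as a broadly expressed isoform and one known from muscle, lung or testis, and these were examined apart. Cox7a1, the isoform of heart and skeletal muscle, was 8.40, 8.33, 8.45, 8.19 and 8.39 in Fadd fl/fl and 8.04, 8.14, 7.94, 8.75 and 8.10 in FADD IEC-KO. Cox7a1 was 8.58, 8.77, 8.45, 8.97 and 8.72 among FADD IEC-KO RIPK3 IEC-KO mice and 7.88, 8.06, 8.05, 8.15 and 8.26 in FADD IEC-KO Mlkl -/-. Apart from replicate 4, the FADD IEC-KO mice lay below every RIPK3-deficient mouse. Its partner Cox7a2 thus rose in all 3 combinations, while Cox7a1 was called in none of them against Fadd fl/fl.

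Cox6b2 fell by 0.59 ± 0.11 in FADD IEC-KO Mlkl -/- (limma adjusted p = 0.000309), where the control values were 6.73, 6.19, 6.22, 6.60 and 6.64 and no mouse overlapped them. This was the single subunit that fell against Fadd fl/fl in the 3 combinations. Its partner Cox6b1 rose by 0.26 in FADD IEC-KO Zbp1 -/-. Group means of Cox4i2, known from lung, ranged from 5.97 to 6.12, those of Cox6a2, of heart and muscle, from 6.46 to 6.69, and those of Cox8c, of testis, from 5.89 to 6.34. Ndufa4l2, a paralog of Ndufa4, ranged from 5.19 to 5.55, Cox8b from 4.56 to 4.94 and Cox7b2 from 2.96 to 3.32, and the last pair were among the dim genes. None of these 6 isoforms passed limma's F test over the 9 groups. The partners Cox6a1 (10.94 to 11.22) and Cox8a (11.04 to 11.22) did not pass it either, and Cox7b (10.53 to 10.82; adjusted p = 0.00135) did. Each level belongs to its own probe, so levels are not compared between genes.

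**Figure D4:**
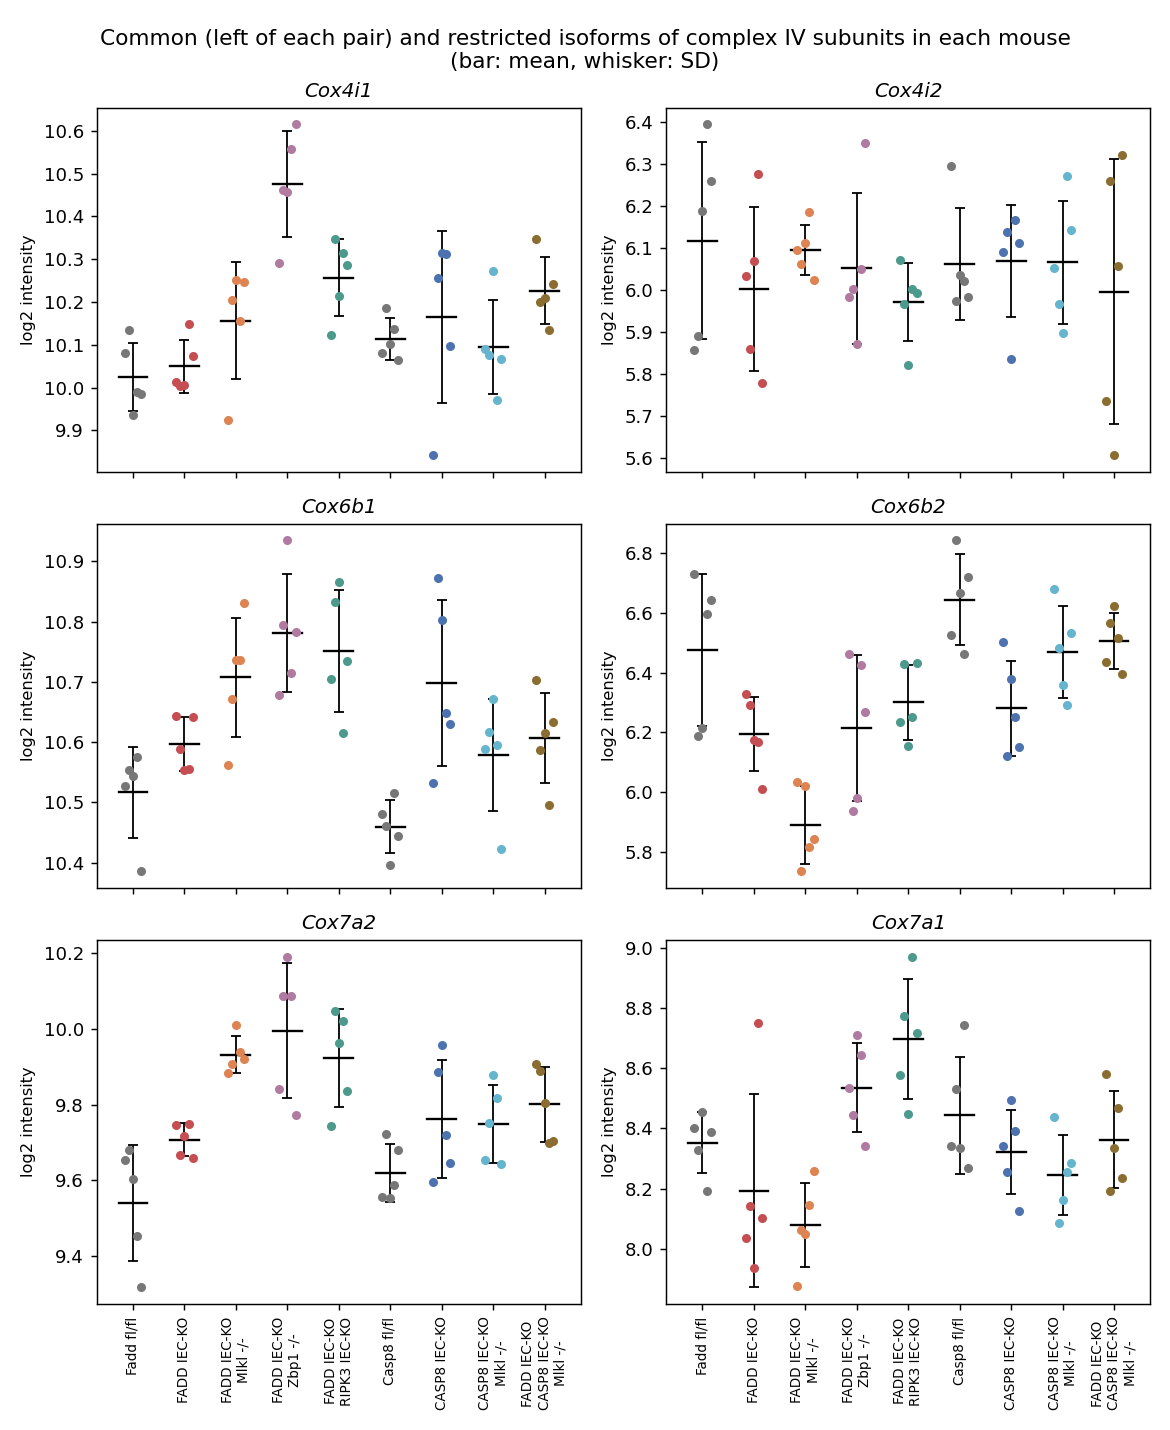
Log2 level of the isoform pairs Cox4i1 and Cox4i2, Cox6b1 and Cox6b2, and Cox7a2 and Cox7a1 in each mouse by group (points), with the group mean (bar) and SD (whisker, n = 5). The FADD IEC-KO Mlkl -/- points of Cox6b2 (5.73 to 6.03) lie below all Fadd fl/fl points (6.19 to 6.73).

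Ndufa3, Sdhb, Uqcrb, Cox7c and Atp5b had the highest mean of their complexes. The group means of Ndufa3 ran from 10.59 to 10.82, those of Uqcrb from 11.77 to 11.94, those of Cox7c from 12.21 to 12.37 and those of Atp5b from 11.93 to 12.06, and none of these 4 passed limma's F test. Those of Sdhb ran from 9.99 to 10.28, and Sdhb passed the F test (adjusted p = 0.0227). Uqcrh, the hinge protein of complex III, ranged from 10.65 to 10.88 and did not pass it.

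After the group means were removed, the 84 subunits varied together only in part from mouse to mouse. As a description over the 45 arrays, which share their preparation, the median correlation of 3486 pairs was 0.20, with 0.21 for 955 pairs within a complex and 0.19 for 2531 pairs between complexes. The median correlation of the subunits with all other genes was -0.0028. Pairs of complex V had a median of 0.33, of complex II 0.36, of complex I 0.22, of complex III 0.18 and of complex IV 0.04. Complex IV was mixed. For Cox4i2, Cox6a2, Cox6b2, Cox7a1, Cox7b2, Cox8b, Cox8c and Ndufa4l2, the median correlation with the other subunits ran from -0.24 (Cox6b2) to 0.06 (Cox7a1). For the other genes of complex IV it ran from -0.01 (Cox7a2l) to 0.34 (Cox5a).

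Other genes of mitochondrial energy metabolism were counted in the same comparisons. In this paragraph and the next, changes with ZBP1, MLKL or RIPK3 loss are again those of the combination with FADD loss against Fadd fl/fl. Cyc1, cytochrome c1 of complex III, which the naming rule did not take in, rose by 0.53 ± 0.08 in FADD IEC-KO Zbp1 -/- (limma adjusted p = 4.94e-06), by 0.40 in FADD IEC-KO Mlkl -/- (adjusted p = 0.00047) and by 0.47 in FADD IEC-KO RIPK3 IEC-KO (adjusted p = 0.000467). Cycs, cytochrome c, rose by 0.44 with ZBP1 loss and 0.37 with MLKL loss. Of 7 such remaining subunits and cytochromes, 4, 2 and 1 rose in FADD IEC-KO Zbp1 -/-, FADD IEC-KO Mlkl -/- and FADD IEC-KO RIPK3 IEC-KO, and 0 fell. Of 49 assembly factors, 9 rose and 2 fell, 10 rose and 1 fell, and 0 rose and 0 fell in the same order, among them Higd1a (0.57) and the copper chaperone Cox17 (0.46) with ZBP1 loss and Ndufaf4 (0.56) with MLKL loss. Of 76 mitochondrial ribosomal protein genes, 20, 16 and 1 rose and 0 fell, with medians of 0.13, 0.19 and 0.13, and in CASP8 IEC-KO 22 rose (29 without its replicate 1).

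Of 20 genes of the tricarboxylic acid cycle and its control, 4 rose and 1 fell in FADD IEC-KO Zbp1 -/- (Suclg2, 0.43, and Suclg1, 0.41, subunits of succinyl-CoA synthetase, rose), and 3 rose and 2 fell in FADD IEC-KO Mlkl -/-. Of 17 genes of fatty acid oxidation, 2 rose in the first and 1 rose and 2 fell in the second, with Acadl, an acyl-CoA dehydrogenase, at 0.62 and 0.61. Of 20 regulators of mitochondrial biogenesis, 2 rose and 2 fell in the first and 3 rose and 2 fell in the second; Ppargc1a, the coactivator known to drive respiratory genes, fell by 0.88 ± 0.22 (limma adjusted p = 0.00508) and by 0.71 (adjusted p = 0.0267), and Pparg rose by 0.61 and 0.57. With RIPK3 loss against Fadd fl/fl, 3 genes of the tricarboxylic acid cycle rose and 0 fell (median 0.13, 16 of 20 above 0), 1 of fatty acid oxidation rose and 0 fell (median 0.16, 15 of 17 above 0), and of the regulators Pparg rose by 0.68 and 0 fell. Of 14 glycolysis genes, 9 rose with ZBP1 loss and 5 with MLKL loss, with medians of 0.33 and 0.30, and 0 with RIPK3 loss, with a median of 0.17. In FADD IEC-KO, where no subunit was called, 8 glycolysis genes rose with a median of 0.45, among them Slc16a3 (0.84), a lactate exporter, and Hk1 (0.71), a hexokinase. Without replicate 1 of that group 8 rose, with a median of 0.48. Mean levels in FADD IEC-KO and Fadd fl/fl were 9.14 and 9.07 for the tricarboxylic acid cycle and 7.41 and 7.31 for assembly factors. They were 9.25 and 9.14 for cristae and import genes, 10.20 and 10.08 for cytosolic ribosomal proteins, and 9.02 and 9.06 for fatty acid oxidation.

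**Figure D5:**
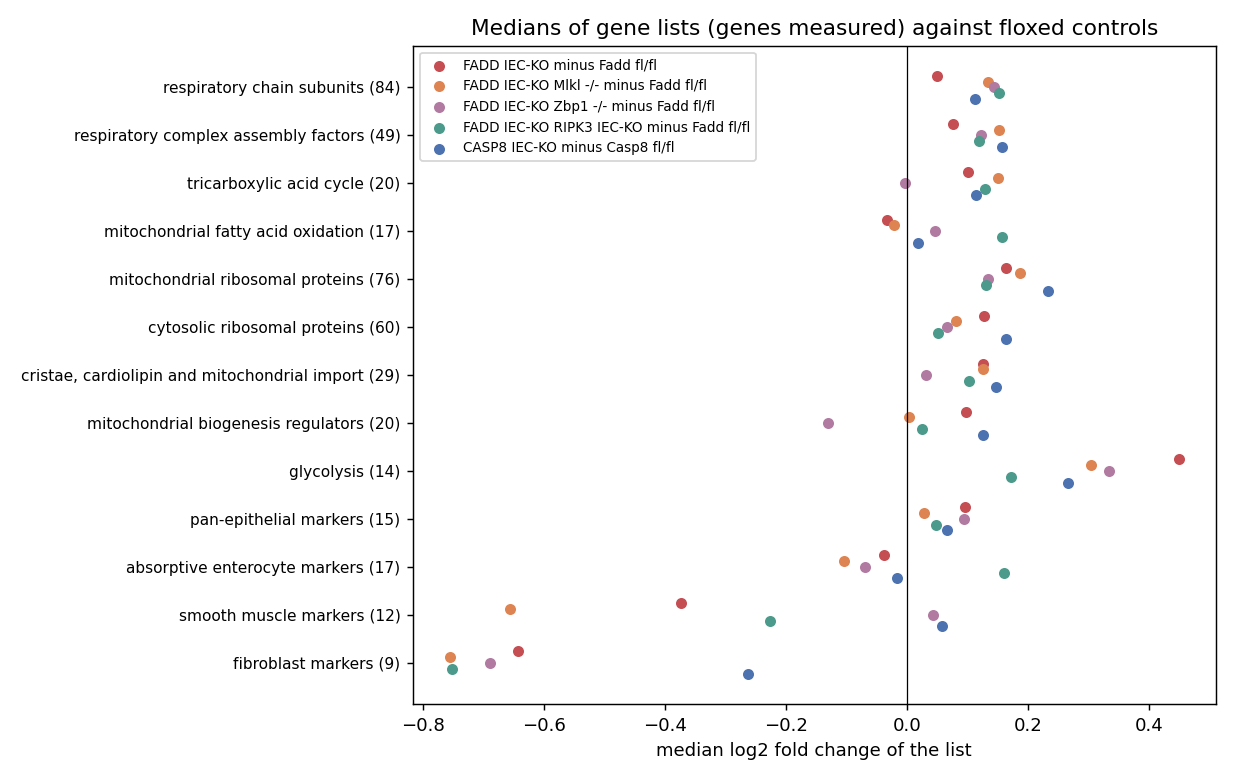
Median log2 change of the subunits and of other gene lists in FADD IEC-KO alone and with loss of MLKL, ZBP1 or RIPK3 against Fadd fl/fl and in CASP8 IEC-KO against Casp8 fl/fl. Glycolysis reaches 0.45 in FADD IEC-KO, where the subunits stand at 0.05.

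Markers of other cell types moved with these groups. Of 9 fibroblast markers, 7 fell with ZBP1 loss in FADD IEC-KO mice, 7 with MLKL loss and 5 with RIPK3 loss, against Fadd fl/fl; their mean level was 8.43 to 9.10 over the Fadd fl/fl mice, 7.96 to 8.56, 7.86 to 8.32 and 7.95 to 8.31 in the combinations. Of 10 Paneth cell markers, 9, 8 and 3 fell, with mean levels of 10.27 to 11.58 in Fadd fl/fl and 8.16 to 8.63, 8.75 to 10.02 and 9.87 to 10.31. Of 12 smooth muscle markers, 8 fell in FADD IEC-KO Mlkl -/- (9.16 to 9.52, against 9.54 to 10.37 in Fadd fl/fl), and 0 passed in FADD IEC-KO Zbp1 -/-. Of 17 enterocyte markers, 1 rose and 6 fell in FADD IEC-KO Mlkl -/- and 2 rose and 1 fell in FADD IEC-KO Zbp1 -/-. FADD loss alone, where no subunit was called, also came with lower markers: 7 of 10 Paneth markers (8.69 to 9.74) and 3 of 9 fibroblast markers (7.69 to 8.72) fell. Between the triple mutant and FADD IEC-KO Mlkl -/- 11 of 12 smooth muscle, 8 of 17 enterocyte and 7 of 10 Paneth markers rose where 7 subunits fell. Their part in the result was not tested. In CASP8 IEC-KO, 7 of 10 Paneth and 6 of 9 goblet markers fell.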

How the data were processed

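Total RNA from whole ileum was measured on 45 arrays, 5 mice in each of 9 groups. The authors deposited log2 intensities, already normalized; the submitters' processing notes name 2 programs, Affymetrix Expression Console and Transcriptome Analysis Console. Their versions and the summarization method are not given in the sources used here. For arrays, their number limits the precision.

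Of 22142 probes, 19527 had 1 gene symbol, 0 several and 2615 none. The probe with the highest mean stood for each of 33 genes with several probes, which gave 19494 genes. Symbols were matched to GRCm38.p6 names. All 45 arrays entered a single linear model, with a mean for each group, in limma 3.58.1 in R 4.3.3 (lmFit, eBayes, 36 residual degrees of freedom), and p-values, two-sided, were adjusted by Benjamini-Hochberg over all 19494 genes; the threshold was 0.05. The fit was tested on simulated data. The labels do not say whether the mice of a group came from separate litters, so p-values measure the spread between these mice.

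Groups followed the titles. The 18 comparisons include 3 added after seeing the data: FADD IEC-KO Zbp1 -/- against the MLKL and RIPK3 combinations and the difference between the MLKL effects. Members, lists and tests were chosen with earlier results of these data known. Named subunits were, per comparison, up to 8 called ones by size of change, or the extreme values where none was called, the subunit with the highest mean per complex, and isoforms with their partners; for other lists, up to 3 called genes. Subunits named beyond these were chosen after their values were seen. Alternatives were centring on array medians, quantile normalization, the title series or a sex index from Y-linked genes as a covariate, leaving out genes under the 25th percentile of mean level (82 of the 84 subunits were kept), fitting only the groups compared, and leaving out each mouse.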

Additional observations from a re-analysis of the deposited data

Results flagged for a closer look

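Among the 48 subunits named by rule and the complex means, a mouse stood apart from the other 4 of its group in 28 of 486 groups examined, the gap to its neighbour being over 0.71 of the group's range. Chance flags about 1 in 20 groups, and over all subunits 41 of 756 groups (5.42%) had such a mouse. Values below are log2 levels of the mouse that stood apart.

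In Fadd fl/fl, replicate 5 was low for Cox6b1 (10.39) and Cox7b (10.35), and replicate 4 was high for Atp5k (7.78). In Casp8 fl/fl, replicate 1 stood apart for Cox4i2 (6.29) and Ndufa3 (10.27), replicate 3 for Cox5a (9.99) and replicate 5 for Atp5l (8.96) and Ndufc1 (10.50). In FADD IEC-KO, replicate 4 stood apart for Cox7a1 (8.75) and for the mean of complex IV (8.78), and replicate 1 for Ndufb10 (7.71). In CASP8 IEC-KO, replicate 1, whose Casp8 value was near the controls, stood apart for Atp5d (10.24) and Cox7c (12.17), and replicate 3 for Cox4i2 (5.84).

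In FADD IEC-KO Mlkl -/-, replicate 1 stood apart for Ndufa3 (10.42) and for the mean of complex II (9.16), and replicate 3 for Ndufa4l2 (4.61). In CASP8 IEC-KO Mlkl -/-, replicate 3 stood apart for Atp5d (9.90), Atp5l (9.26) and Ndufb8 (7.72), replicate 5 for Ndufb10 (7.63) and replicate 1 for Sdhc (8.42). In FADD IEC-KO Zbp1 -/-, replicate 5 stood apart for Atp5l (9.59) and replicate 3 for Cox7b2 (2.68). In FADD IEC-KO RIPK3 IEC-KO, replicate 4 stood apart for Ndufa1 (8.21) and replicate 1 for Uqcrc2 (8.71). In the triple mutants, replicate 1 stood apart for Cox6a2 (6.25) and Cox8c (5.77).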

How the results depend on the processing

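Under each of the 6 settings below, more subunits were called against Fadd fl/fl in FADD IEC-KO Zbp1 -/- than in FADD IEC-KO Mlkl -/-, and RIPK3 loss gave the fewest (41, 35 and 9 in that order with quantile normalization). This order is that of calls after adjustment. In the main fit, subunits higher at an unadjusted limma p under 0.05 were most frequent in FADD IEC-KO RIPK3 IEC-KO (45), with 38 in each of the other combinations. With only the groups compared in the fit, which leaves fewer mice to estimate the spread, the counts were 9 for FADD IEC-KO Zbp1 -/- against Fadd fl/fl (30 with all groups), 7 for FADD IEC-KO Mlkl -/- (21), 0 for FADD IEC-KO RIPK3 IEC-KO (8), 0 for CASP8 loss (8), 0 for ZBP1 loss (12), 0 for MLKL loss without FADD (1), 0 for RIPK3 loss (3), 1 for the triple mutant against controls (4), and 1 and 0 for FADD IEC-KO Zbp1 -/- against the MLKL (6) and RIPK3 (1) combinations. With each array centred on its median, the count was 1 for FADD loss (0), 13 for CASP8 loss and 14 for CASP8 loss added to FADD IEC-KO Mlkl -/- (8). With quantile normalization it was 5 for CASP8 loss, 20 for ZBP1 loss, 35 for FADD IEC-KO Mlkl -/- against control, 21 for CASP8 loss added, 0 for FADD loss added to CASP8 IEC-KO Mlkl -/- (1), and 2 for FADD IEC-KO Zbp1 -/- against FADD IEC-KO RIPK3 IEC-KO. With the title series as a covariate it was 5 for CASP8 loss added and 0 for FADD loss added. With a sex index as a covariate, the count of FADD IEC-KO Zbp1 -/- against FADD IEC-KO RIPK3 IEC-KO was 0. With dim genes left out, so that fewer genes were tested, it was 1 for FADD loss, 13 for CASP8 loss, 2 for MLKL loss without CASP8 (0), 6 for RIPK3 loss, 7 for the triple mutant, 13 for CASP8 loss added and 3 for FADD loss added. Apart from the fewer genes or mice named here, the cause was not tested.

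Leaving out each mouse in turn gave 45 to 52 for the F test over all groups (50). Against Fadd fl/fl the ranges were 0 to 1 for FADD loss, 10 to 23 for FADD IEC-KO Mlkl -/-, 23 to 31 for FADD IEC-KO Zbp1 -/- and 0 to 8 for FADD IEC-KO RIPK3 IEC-KO. They were 1 to 16 for CASP8 loss, 0 to 1 for CASP8 IEC-KO Mlkl -/- against Casp8 fl/fl, 0 to 1 between the floxed controls, 0 to 1 for the difference between FADD and CASP8 loss, 1 to 1 for MLKL loss without FADD, 0 to 2 for MLKL loss without CASP8, 0 to 1 for the difference between these, 4 to 17 for ZBP1 loss and 0 to 6 for RIPK3 loss. They were 1 to 5 for the triple mutant against controls, 5 to 8 for CASP8 loss added, 0 to 2 for FADD loss added, and 2 to 10 and 0 to 1 for FADD IEC-KO Zbp1 -/- against the MLKL and RIPK3 combinations. Without FADD IEC-KO replicate 1, whose Fadd value was near the controls, the counts were 0 for FADD loss, 13 for ZBP1 loss, 1 for MLKL loss and 3 for RIPK3 loss.

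Of 64 calls of named subunits, 24 held in every fit with a mouse left out, 20 under every other setting and 17 under all of both, and 0 reversed. Calls were lost in 41 cases with only the groups compared, 8 with quantile normalization, 8 with the title series, 2 with centring, 1 with the sex index and 0 with dim genes left out. The scalings moved the median of all genes by at most 0.041. No paired analysis was possible because the groups share no replicate numbers in their titles.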
